A study of Mus musculus with 4 samples.

Results

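The cells described here were chosen by a marker rule from the mouse embryonic head at E10.5, as a population labelled macrophages and early microglia. A cell was taken as a macrophage when it had at least 1 UMI (unique molecular identifier, the tag that marks 1 captured RNA molecule) of at least 3 of 8 genes: C1qa, C1qb, C1qc, Csf1r, Tyrobp, Fcer1g, Ptprc and Cx3cr1. Cells had to have at least 500 detected genes and under 10% mitochondrial UMIs. Of the 24259 cells kept, 180 met the rule, 47 and 78 in replicates 1 and 2 of Apcdd1+/- and 29 and 26 in replicates 1 and 2 of WT. All 180 are called macrophages below for short, though the set was mixed. Of them, 36 had a UMI of Mpo, a granule enzyme gene of early myeloid cells, and none of Mrc1, a border macrophage gene.

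Heads were dissociated and live cells were sorted before droplet single-cell RNA sequencing, in samples titled embryonic brain. The study compared wild type embryos (WT) with embryos heterozygous for Apcdd1 (Apcdd1+/-), with 2 libraries per genotype, all of that age. Apcdd1 encodes a membrane protein known to inhibit Wnt signalling. No source used here gives the strain, the kind of Apcdd1 allele or the number of embryos per library, so a p-value measures the spread between libraries, which may be technical.

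The first macrophages of the mouse embryo arise in the yolk sac from erythro-myeloid progenitors, seed the head and brain before a blood-brain barrier has formed, and there become microglia in the neural tissue and border macrophages in the coverings and around vessels. They depend on the receptor Csf1r and on the transcription factor PU.1, encoded by Spi1. Tyrobp and Fcer1g are adaptor proteins that pass signals from surface receptors to the kinase Syk, C1qa, C1qb and C1qc form the complement protein C1q, Ptprc is the leukocyte antigen CD45, and Cx3cr1 is the receptor for the chemokine fractalkine, made by Cx3cl1.

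The promoters of 3 genes that stand for the poles of this population are shown: C1qc, a gene of the rule, Mrc1, the mannose receptor of border macrophages, and Prtn3, a granule protease of early myeloid cells. Each run is the 250 bases before the transcript start, 5′ to 3′ on the gene's strand, from RefSeq on GRCm38.p6, at chr4:136892915-136893164 (minus strand), chr2:14229164-14229413 (plus strand) and chr10:79879417-79879666 (plus strand). Capitals mark GAGGAAG and AGGAAGT, the 2 letter strings searched on both strands as cores of the PU.1 motif, which overlap each other by 6 letters.
C1qc promoter: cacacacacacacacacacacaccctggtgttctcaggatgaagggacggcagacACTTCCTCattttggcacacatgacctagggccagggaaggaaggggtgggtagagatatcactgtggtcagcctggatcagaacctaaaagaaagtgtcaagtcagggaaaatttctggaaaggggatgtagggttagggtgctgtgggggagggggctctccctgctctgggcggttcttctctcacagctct
Mrc1 promoter: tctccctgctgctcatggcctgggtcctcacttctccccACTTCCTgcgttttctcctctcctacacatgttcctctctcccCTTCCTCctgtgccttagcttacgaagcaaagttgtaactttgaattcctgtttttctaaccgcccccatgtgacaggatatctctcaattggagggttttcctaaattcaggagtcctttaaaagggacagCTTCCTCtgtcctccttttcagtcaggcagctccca
Prtn3 promoter: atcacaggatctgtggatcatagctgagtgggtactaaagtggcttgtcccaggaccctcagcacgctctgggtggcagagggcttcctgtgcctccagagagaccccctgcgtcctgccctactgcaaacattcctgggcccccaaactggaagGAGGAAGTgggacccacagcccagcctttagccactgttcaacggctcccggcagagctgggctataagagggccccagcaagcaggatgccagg
C1qc and Prtn3 each held both strings as 1 merged run, and Mrc1 held 3 separate matches. Over windows from 250 bases before to 50 after the start, 18 of the 34 windows matched to the 8 rule genes and the 25 genes taken below as higher held either string (52.9%), against 19.1% of all 32851 windows. Of those 33 genes 24 were matched to a window and 16 had a window with a string. Among the genes without an entry were C1qa, Csf1r, Tyrobp, Cd52, Rac2, Lst1, Bin2 and Maf.

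The number of rule genes per cell fell into a low and a high set, which is a description, since these values chose the cells. Of the kept cells, 22614 had none of the 8 genes, 1424 had 1 and 41 had 2, while 3 cells had 3, 10 had 4, 19 had 5, 26 had 6, 29 had 7 and 93 had all 8. The cells just outside the rule, with 2 genes, had a median of 2 of the 28 core macrophage genes that the rule did not use, and the 3 cells just inside had a median of 10. The 14 such outside cells of replicate 2 of Apcdd1+/- had a median of 6.5 and up to 10 core genes, which reached the cells just inside. Cells with all 8 rule genes had a median of 22 of those 28.

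**Figure D1:**
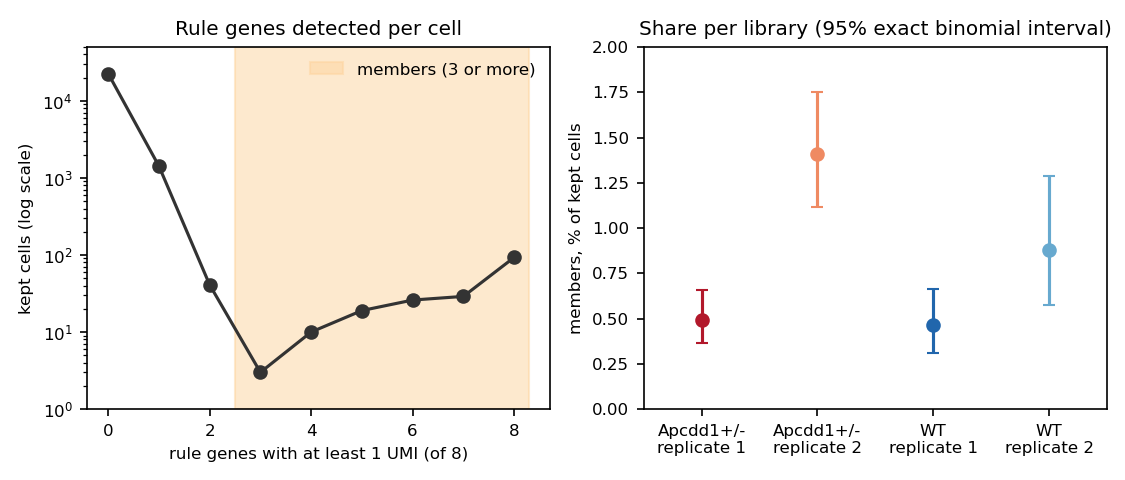
Left, number of kept cells (log scale) by how many of the 8 rule genes had a UMI, with the range taken as macrophages shaded: 3 cells stood at the limit and 93 had all 8 genes. Right, macrophages as a percentage of kept cells in each library, with exact 95% binomial intervals, between 0.463% and 1.41%.

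Depth set limits on what could be seen per cell. The libraries held 55393605 to 96822641 UMIs over all barcodes, of which the macrophages held 587265 to 1399400. The macrophages had a median of 18438.5 UMIs per cell and the other kept cells 10191. By library the macrophage median was 16412 and 13682 in Apcdd1+/- and 20626 and 40835 in WT, so replicate 2 of WT was the deepest. Of the 4 libraries, replicate 2 of Apcdd1+/- and replicate 1 of WT had Y-linked transcripts at 89.3 and 66.4 CPM (counts-per-million units, the UMIs of a gene scaled to all UMIs summed over the cells of a group in a library) in macrophages and the other libraries 3.73 and 1.87, so each genotype had 1 library of each kind. Of 100 bead barcodes shared between pairs of libraries, 2 belonged to a macrophage in 1 library and 0 in both, and the barcode list of replicate 1 of Apcdd1+/- named only 3994 of its 9735 cells.

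Markers of other cell types were read in the same cells, and no doublet caller was run. Of the 180 macrophages, 70 had UMIs of at least 3 markers of another class, 16 and 26 in Apcdd1+/- and 8 and 20 in WT. The class was megakaryocyte in 41 cells, endothelium in 17, neural progenitor in 16, erythroid in 14, neutrophil in 6 and neuron in 5, and a cell could count for several. Summed over 10 markers, erythroid genes lay at 23.8 to 95.4 CPM in the macrophages and 3078 to 7134 CPM in the other cells, with Klf1 and Slc4a1 among those at 0. Neural progenitor markers summed to 64.5 to 128 CPM against 1226 to 1348 CPM. Endothelial markers summed to 125 to 138 CPM against 37.4 to 83.6 CPM, with Esam and Cldn5 at 0. Neutrophil markers summed to 225 to 657 CPM against 3.43 to 5.59 CPM, with S100a9, Ngp, Camp and Retnlg at 0. That list includes Mpo and Prtn3, and Prtn3 alone lay at 199 to 480 CPM in the macrophages. Both are read below as early myeloid genes, so this sum is not a separate sign of neutrophils. The megakaryocyte markers summed to 683 to 937 CPM against 159 to 192 CPM, with Ppbp at 0. That list includes Itga2b, which is also counted below among the early myeloid progenitor genes. Whether its other members, among them Rap1b and Plek, mark only megakaryocytes was not tested. The sum and the 41 cells are therefore not a separate sign of megakaryocytes or of mixed cells.

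The levels of the rule genes are given in CPM, in the order Apcdd1+/- replicates 1 and 2 and WT replicates 1 and 2, which is kept for every set of 4 values below. They are a description with no test, because they chose the cells. C1qa was at 165, 138, 206 and 121 CPM, C1qb at 709, 527, 792 and 414 CPM, and C1qc at 230, 262, 313 and 182 CPM. All 3 C1q genes were highest in replicate 1 of WT and lowest in replicate 2 of WT. The 2 adaptors were at 1076, 1600, 1226 and 1019 CPM for Tyrobp and 552, 585, 514 and 436 CPM for Fcer1g. Csf1r was at 376, 419, 398 and 278 CPM, Cx3cr1 at 834, 980, 724 and 547 CPM, and Ptprc at 177, 199, 112 and 179 CPM. Tyrobp was found in 180 of 180 cells, Csf1r in 170, Cx3cr1 in 176, C1qb in 148 and C1qa in 113. Among the other kept cells 3.81% had a UMI of Cx3cr1, at 2.58 to 5.06 CPM on average in each of the marker-defined classes examined, and the other 7 rule genes were each in at most 1.10% of them.

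The macrophages differed from the other cells across much of the measured transcriptome, with leukocyte genes high and neural and globin genes low. UMIs were summed per library over the macrophages and over the other kept cells, and compared with edgeR's quasi-likelihood test with the library as a block, with the 8 rule genes left out and a Benjamini-Hochberg adjusted p under 0.05 as threshold. Of 14497 genes tested, 3542 were higher in the macrophages (24.4%) and 5159 were lower (35.6%). Scaling by library size alone gave 2745 higher and 6497 lower, and moved the median log2 difference of all genes from -0.29 to -0.54. The other genes were read in the very cells that the rule chose, so these tests size the differences and do not bear on the choice of cells.

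By a rule, the 25 genes with the largest log2 difference among those at 200 CPM or more were taken, and 24 are named here. The rule also asked for the same side in each of 4 libraries. Lyz2, the lysozyme of macrophages, was at 202, 244, 291 and 284 CPM in the macrophages and at most 0.229 CPM in the other cells of any library, a log2 difference of 11.60 (SE 0.19). Cd52, a leukocyte surface glycoprotein, was at 493, 526, 480 and 437 CPM against at most 0.475 CPM (log2 10.96, SE 0.13). The lack of overlap within each library follows from the rule for both genes. Mrc1 was at 269, 404, 467 and 360 CPM against at most 0.668 CPM (log2 10.10, SE 0.13). F13a1, the coagulation factor XIII A chain that macrophages make, was at 387, 322, 376 and 289 CPM (log2 9.16, SE 0.12). Prtn3 was at 258, 325, 199 and 480 CPM, highest in replicate 2 of WT (log2 6.50, SE 0.11). The other named genes had log2 differences from 4.89 (Maf) to 9.86 (Cyth4). They were Rac2, Coro1a, Lcp1, Arhgdib, Capg and Arpc1b, which act on actin, Ncf1, a subunit of the phagocyte NADPH oxidase, the lysosomal proteins Laptm5, Ctsc and Ctss, the phosphatase Ptpn6, the inflammasome adaptor Pycard, the transcription factors Mef2c and Maf, and Lst1, Plac8, Bin2, Emp3 and Cyth4. The largest adjusted p among the 25 was 2.6e-267.

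The 10 genes named as lower had at least 200 CPM in the other cells. They were the globin genes Hba-a1, Hba-a2, Hbb-bh1, Hba-x and Hbb-y, the neuronal cytoskeletal genes Nefm, Tubb3 and Map1b, the progenitor gene Fabp7, and Id3, an inhibitor of helix-loop-helix factors. Hba-a1 was at 4.98, 4.29, 3.41 and 15.0 CPM in the macrophages against 531, 1096, 573 and 1367 CPM in the others (log2 -6.80, SE 0.15). In both groups replicate 2 of WT was the highest. Hba-a1 and Hba-a2 are near-identical copies, so their counts may be split between them. Map1b, the least changed of the 10, had a log2 difference of -4.59 (SE 0.14), and the largest adjusted p was 4.7e-123.

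**Figure D2:**
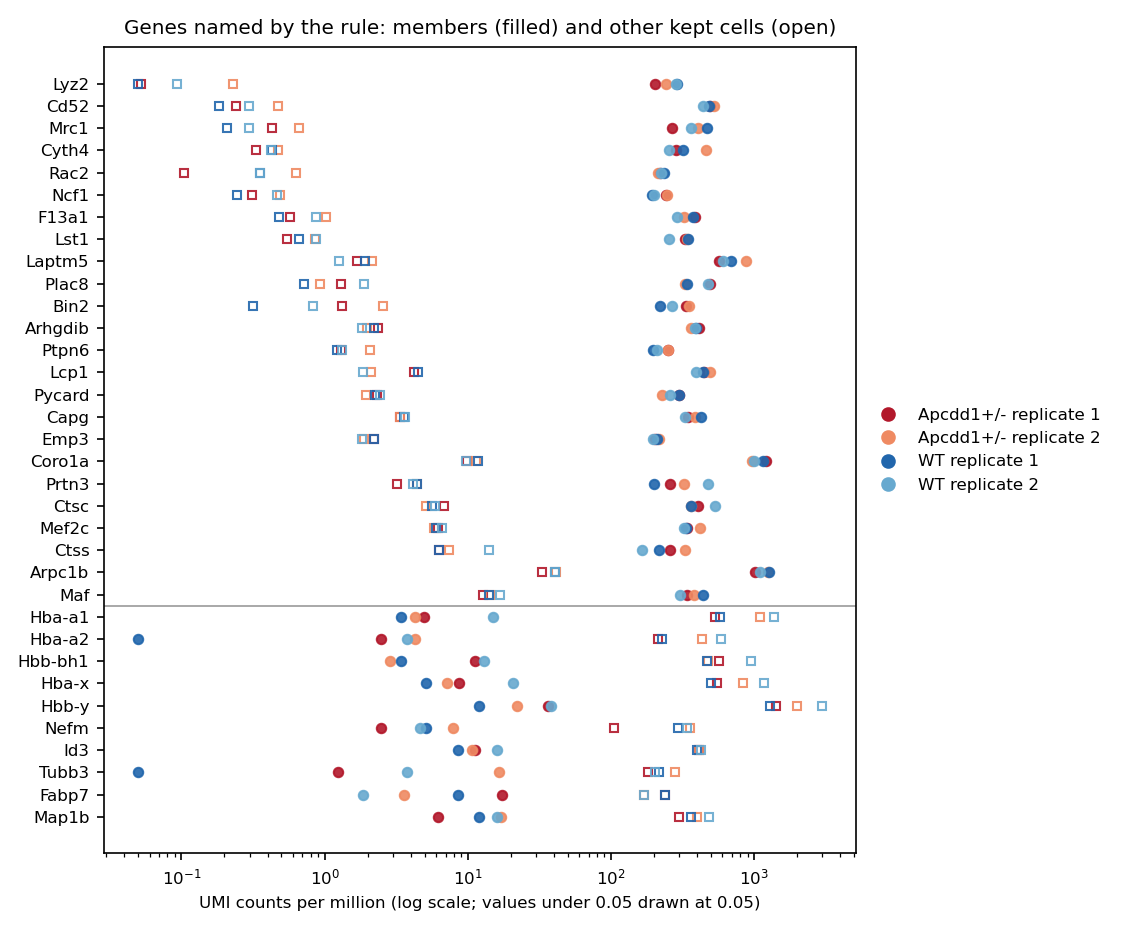
CPM (log scale) of 24 genes named as higher (above the line) and the 10 named as lower (below it), with filled circles for the macrophages, open squares for the other kept cells and 1 colour per library. The groups stand apart in every library for each gene because the rule asked for it. Lyz2, for example, is at 202 to 291 CPM against at most 0.229 CPM.

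Identity genes were read from lists of known roles, each beside the 24.4% of all tested genes that were higher. All 28 core macrophage genes outside the rule were higher, with a median log2 difference of 8.59 against -0.29 for all genes. Spi1 was at 204, 177, 191 and 185 CPM, which is an even level across the libraries, against a mean of 0.283 CPM in the other cells (log2 9.62, SE 0.19). Aif1, the calcium-binding protein Iba1 by which microglia are stained, was at 154, 176, 226 and 131 CPM (log2 12.25, SE 0.24). Fcgr1, a high-affinity Fc receptor, was at 124, 156, 194 and 136 CPM (log2 11.74, SE 0.25). Trem2, the receptor that signals through Tyrobp, was at 17.4, 12.9, 23.8 and 9.35 CPM in 40 of 180 cells, and 1 of the other kept cells had a UMI of it. A log2 difference against such near-zero levels depends on the model's prior count. These genes were read in the chosen cells, and 36 of the 180 had Mpo without Mrc1, of which 18 had no UMI of C1qb.

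Of 24 myeloid transcription factors, 21 were higher and Sall1 was lower, with a median of 3.53. Irf8, needed for microglia and monocytes, was at 187, 204, 175 and 190 CPM (log2 5.76, SE 0.14). Maf was at 337, 379, 441 and 303 CPM (log2 4.89, SE 0.09) and Mef2c at 340, 416, 334 and 322 CPM (log2 6.09, SE 0.10). Runx1, the master factor of definitive blood formation, was at 56.0, 58.6, 34.1 and 46.8 CPM (log2 5.33, SE 0.31).

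Microglia genes divided. Of 19 listed, 17 were tested, 12 were higher, 3 were lower and 2 did not pass, with a median of 3.49. Fcrls was at 113, 92.9, 136 and 73.0 CPM (log2 11.22, SE 0.34) and the purinergic receptor P2ry12 at 36.1, 26.4, 30.7 and 21.5 CPM (log2 6.37, SE 0.42). Both were lowest in replicate 2 of WT. Tmem119 was at 65.9, 47.2, 42.6 and 1.87 CPM, so 3 libraries lay far above the last, and was higher than in the other cells (log2 2.21, SE 0.23), which had a mean of 9.23 CPM. This call was lost with DESeq2 (log2 1.84, adjusted p = 0.077). Siglech, a lectin of microglia, was in 5, 4, 4 and 0 cells and was too low to be tested. Sall1, the transcription factor that marks mature microglia in the brain, had a UMI in 2 of the 180 macrophages and in 14.4% of the other cells, and was called lower (adjusted p = 6.8e-15 in edgeR's quasi-likelihood test). Sparc and Golm1 were the other 2 that were lower, at 67.3 and 64.3 CPM on average against 278 and 154 CPM. These averages cover unlike cells. In 36 cells with a UMI of Tmem119 or Siglech and none of Lyve1, Sparc was at 307 CPM and Golm1 at 171 CPM. In 17 cells with Lyve1 and neither Tmem119 nor Siglech, they were at 49.1 and 83.8 CPM. In 121 cells with none of the 3 genes, Sparc and Golm1 were lower than in either of these groups. The levels in these groups were not tested. Cells with Tmem119 or Siglech were thus present, while Sall1 was nearly undetected.

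Border and yolk-sac macrophage genes were high where they were measured: 13 of 14 tested were higher and Folr2 did not pass, with a median of 9.01. Dab2, an endocytic adaptor, was at 394, 400, 516 and 342 CPM (log2 4.87, SE 0.09), the scavenger receptor Stab1 at 141, 192, 242 and 119 CPM (log2 6.77, SE 0.16), and Ms4a6c at 167, 129, 203 and 118 CPM (log2 11.76, SE 0.25). Each was highest in replicate 1 of WT and lowest in replicate 2 of WT. Lyve1, the hyaluronan receptor of border macrophages, was at 53.5, 35.0, 111 and 2.81 CPM (log2 10.08, SE 0.55), highest in replicate 1 of WT and nearly absent from replicate 2 of WT. Cd163 had 0 UMIs in the macrophages, which allows a share of cells with a UMI of up to 2.03% (exact 95% interval), and Ms4a7, a gene of adult border macrophages, had a UMI in 3 cells.

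Early myeloid genes were also present. Of 14 erythro-myeloid and early myeloid progenitor genes tested, 9 were higher, Kit was lower and Myb, Gata1, Gata2 and Cd93 did not pass, with a median of 2.55. Mpo, the granule enzyme myeloperoxidase, was at 89.6, 131, 23.8 and 143 CPM (log2 8.14, SE 0.27), lowest in replicate 1 of WT. Cd34, a surface protein of progenitors, was at 47.3, 46.4, 30.7 and 44.0 CPM (log2 3.87, SE 0.26). Kit, the stem cell factor receptor, was at 2.49, 2.14, 0 and 1.87 CPM (log2 -1.95, SE 0.52). Of 9 monocyte genes tested 7 were higher, among them Ccr2 at 4.98, 10.7, 11.9 and 6.55 CPM (log2 8.64, SE 0.71), and Vcan and Fn1 were lower. Ly6c2, a marker of classical monocytes, was at 0.715 to 1.70 CPM in each library and was too low to be tested.

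Phagocyte machinery was high as a whole. All 27 lysosomal genes tested were higher, with a median of 2.52. Ctsb, a cathepsin, was at 561, 682, 673 and 424 CPM (log2 3.25, SE 0.08), Ctsc, the cathepsin that activates granule proteases, at 403, 364, 361 and 537 CPM (log2 6.38, SE 0.10), and Psap, the saposin precursor, at 812, 1094, 965 and 653 CPM (log2 1.99, SE 0.07). Replicate 2 of WT was the lowest for Ctsb and Psap and the highest for Ctsc. All 19 genes tested of signalling through ITAM motifs, the tyrosine motifs of Tyrobp and Fcer1g, were higher, with a median of 5.86, such as Syk at 44.8, 35.0, 46.0 and 17.8 CPM (log2 4.68, SE 0.33) and Plcg2 at 108, 132, 97.1 and 97.3 CPM (log2 4.89, SE 0.18). All 20 genes of actin and leukocyte motility were higher, with a median of 6.80, including Coro1a at 1208, 964, 1146 and 993 CPM (log2 6.89, SE 0.09).

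Receptors for engulfment were uneven. Of 19 phagocytic and scavenger receptors tested, 14 were higher, Mfge8, Megf10 and Adgrb1 were lower, and Axl and Stab2 did not pass. Mertk, a receptor for apoptotic cells, was at 13.7, 29.3, 22.1 and 5.61 CPM (log2 1.80, SE 0.30), and its ligand Gas6 at 31.1, 39.3, 57.9 and 50.5 CPM (log2 5.24, SE 0.32). Axl, of the same receptor family, was at 3.73, 3.57, 6.81 and 0 CPM. Complement genes beyond C1q were led by the receptor C3ar1, at 170, 169, 189 and 107 CPM (log2 10.77, SE 0.23), and 6 of 9 tested were higher. C3 itself had 1 UMI in the macrophages of 1 library and none in the rest.

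Lipid and iron genes moved in both directions. Of 17 lipid genes tested 10 were higher, among them Lpl, lipoprotein lipase, at 332, 478, 455 and 482 CPM (log2 4.24, SE 0.09) and Apoe at 343, 369, 409 and 196 CPM (log2 3.00, SE 0.09), and 4 were lower, among them Fabp5 at 584, 567, 530 and 448 CPM against a mean of 1271 CPM (log2 -1.01, SE 0.07). Of 15 iron and haem genes 12 were higher. Haem oxygenase, Hmox1, was at 49.8, 42.9, 39.2 and 64.5 CPM (log2 3.71, SE 0.24), the ferritin heavy chain Fth1 at 2342, 2599, 2226 and 1833 CPM (log2 1.93, SE 0.07), and the transferrin receptor Tfrc was lower, at 47.3, 66.5, 34.1 and 81.4 CPM (log2 -0.63, SE 0.13).

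Signals sent and received were examined next. Of 12 chemokine and cytokine genes tested 9 were higher and 10 more were too low to be tested. Ccl3 was at 77.1, 85.0, 28.9 and 55.2 CPM against at most 0.0176 CPM in the other cells, Ccl9 at 44.8, 32.2, 52.8 and 43.0 CPM (log2 11.57, SE 0.56) and Cxcl2 at 57.2, 57.9, 49.4 and 67.3 CPM (log2 8.80, SE 0.41), all chemokines for myeloid cells. Of 18 receptors tested 16 were higher and Cxcr4 was lower, with 1 UMI in the 180 cells. Tgfbr2, a TGF-beta receptor chain, was at 38.6, 24.3, 32.4 and 23.4 CPM (log2 3.68, SE 0.31), while its partner Tgfbr1 did not pass (log2 -0.29, SE 0.14), at 67.2, 72.9, 68.1 and 14.0 CPM. Tgfb1 itself was at 37.3, 52.2, 35.8 and 49.6 CPM (log2 6.02, SE 0.35). Growth factor and matrix genes were mostly not high: 4 of 18 were higher and 8 lower, with a median of -0.66. Igf1, a growth factor of later microglia, did not pass, at 12.4, 12.1, 11.9 and 1.87 CPM, and Spp1 and Gpnmb were each at most 1.87 CPM.

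Ligands of macrophage receptors were sought in all cells, in classes defined by at least 4 markers (mean ± SD of 4 libraries, in CPM). Csf1, a ligand of Csf1r, was at 8.22 ± 1.29 (SD, n = 4) in 228 endothelial cells, 4.31 ± 0.65 in 13774 neural progenitors and in 1 of 180 macrophages. Il34, the other ligand of Csf1r, averaged at most 1.00 CPM in each class examined and had 0 UMIs in the macrophages. Cx3cl1 was at 19.0 ± 6.14 in endothelium and 7.01 ± 1.42 in neural progenitors, and Tgfb1 at 43.7 ± 8.36 in macrophages and 32.6 ± 5.41 in endothelium. Cxcl12 was at 173 ± 22.7 in mesenchyme and 0.49 ± 0.61 in macrophages. Csf1r, a rule gene, had a UMI in 0 of 228 endothelial cells. That class was taken only from cells outside the rule, so this count depends in part on the choice of cells. These levels were not tested against each other.

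The class I light chain was high and class II genes were near the level of the other cells or at 0. B2m, that light chain, was at 547, 287, 417 and 326 CPM (log2 3.83, SE 0.09), while the class II gene H2-Ab1 did not pass, at 11.2, 3.57, 3.41 and 2.81 CPM, and H2-Aa had 0 UMIs. Of 13 genes of antigen presentation and interferon response tested, 12 were higher, among them Ifitm3 at 215, 408, 240 and 184 CPM (log2 4.62, SE 0.10). Of 24 immediate early and stress genes, which dissociation of tissue is known to induce, 19 were higher and 2 lower, with a median of 0.92. Fos was at 69.7, 61.5, 34.1 and 92.6 CPM (log2 2.17, SE 0.17) and Hspa1a at 52.3, 18.6, 20.4 and 55.2 CPM (log2 4.95, SE 0.34), so these genes were higher beside the chemokine genes above, and their part in those differences was not tested.

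Cell cycle genes were present, with S phase genes near the levels of the other cells and G2/M genes more often lower than higher. The median log2 difference was 0.24 for S phase and -0.21 for G2/M genes, against -0.29 for all genes tested. Of 24 S phase genes, 13 were higher and 4 lower with TMM scaling, but 6 were higher and 7 lower with library size alone, and 5 higher and 6 lower once cells with 3 or more markers of another class were left out. Mcm5, a helicase subunit, was at 305, 291, 244 and 288 CPM against a mean of 206 CPM (log2 0.72, SE 0.08). Of 24 G2/M genes 4 were higher and 10 lower, and 1 and 15 with library size alone. Cenpf, a kinetochore protein, was at 51.0, 67.2, 49.4 and 45.8 CPM against 250 CPM (log2 -1.96, SE 0.11). Mki67 did not pass, at 162, 153, 172 and 179 CPM (log2 -0.14, SE 0.09). It had a UMI in 80.0% of the macrophages and 65.6% of the other cells, and in 22.2% and 23.6% once cells were thinned to 1500 UMIs.

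Wnt pathway genes were mostly lower, on the pathway that Apcdd1 acts on. Of 28 tested, 21 were lower and 2 higher (Myc and Lrp5), with a median of -1.58 against -0.29 for all genes and 35.6% of all genes lower. The call of Lrp5 was lost in 9 of 12 alternatives, such as library size alone (log2 0.60, adjusted p = 0.16 in edgeR's quasi-likelihood test). Ctnnb1, which encodes beta-catenin, was at 187, 203, 209 and 181 CPM against a mean of 552 CPM (log2 -1.25, SE 0.08), and the target gene Axin2 at 2.49, 0, 0 and 0 CPM against 15.5 CPM, from 2 UMIs. The receptor gene Fzd1 had 0 UMIs in the macrophages. Of 21 genes of glycolysis and developmental timing, 10 were higher and 8 lower, with a median of 0.26. Among the lower ones, Hmga2 was at 58.5, 67.9, 52.8 and 77.6 CPM against 415 CPM (log2 -2.42, SE 0.10) and Lin28a at 9.95, 6.43, 6.81 and 4.68 CPM against 41.7 CPM (log2 -2.38, SE 0.26).

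Macrophages were not alike, and 1 contrast lay between cells with Mpo and cells with Mrc1. These groups were chosen after values were seen and are described with no test. Mpo had a UMI in 50 cells (27.8%) and Mrc1 in 88 (48.9%). By library the share with Mpo was 21.3%, 26.9%, 20.7% and 50.0%, highest in replicate 2 of WT, and that with Mrc1 46.8%, 46.2%, 62.1% and 46.2%. Among the other kept cells, with fewer UMIs per cell, these shares were 0.125% and 0.399%. Of the 50 cells with Mpo, 49 also had Prtn3. A UMI of Mpo without Mrc1 was found in 36 cells, of both in 14, of Mrc1 alone in 74 and of neither in 56. The median depth was 27046, 28701, 19341 and 12001 UMIs in these groups, so a missing UMI weighs least in the last.

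Cells with Mpo and no Mrc1 had high early myeloid and low C1q levels. C1qb was at 136 CPM in them, 589 CPM with both genes, 889 CPM with Mrc1 alone and 482 CPM with neither, and C1qa at 48.5, 78.9, 254 and 105 CPM. Prtn3 ran the other way, at 861, 291, 93.8 and 175 CPM, as did Ctsc at 625, 539, 269 and 395 CPM, Plac8 at 640, 383, 249 and 449 CPM and Cd34 at 76.1, 41.6, 11.8 and 67.8 CPM. The order of C1qb between cells with Mpo alone and Mrc1 alone held in each library: in cells with Mpo alone it was at 384, 86.6, 270 and 66.5 CPM, and in cells with Mrc1 alone at 906, 829, 1048 and 827 CPM. The former were 7, 14, 4 and 11 cells and the latter 19, 29, 16 and 10. Spi1 and Tyrobp were close across the 4 groups, Tyrobp at 1276, 1190, 1194 and 1482 CPM. Tyrobp, C1qa and C1qb are rule genes, so their levels in these groups depend in part on the choice of cells. Cells low in C1q could enter only through other rule genes, such as Tyrobp. Cells with both genes stood between the poles for Prtn3 and C1qb.

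Mrc1 alone went with endocytic and border genes. F13a1 was at 92.0, 416, 594 and 66.5 CPM in the same order of groups, Dab2 at 27.7, 397, 785 and 93.4 CPM, Maf at 92.0, 419, 592 and 189 CPM, Ctsb at 183, 416, 999.9 and 344 CPM and Pf4, the platelet factor 4 chemokine also made by macrophages, at 4.94, 21.9, 259 and 1.28 CPM. Lyve1 was in 23 cells, and all 23 had Mrc1. The microglia genes did not share 1 order over the groups. Summed over libraries, Tmem119 was at 18.8, 13.1, 5.59 and 143 CPM and Siglech at 0, 0, 9.94 and 34.5 CPM. The cells with neither Mpo nor Mrc1 numbered 18, 28, 7 and 3 by library. Tmem119 in them was at 137, 169, 194 and 0 CPM, where the 0 of replicate 2 of WT rests on 3 cells. Siglech in those cells was at 32.2, 51.4, 10.2 and 0 CPM, and in replicate 1 of WT it was higher with Mrc1 alone, at 24.7 CPM. The 10.2 CPM came from 1 UMI, and 6 of the UMIs behind the 24.7 CPM lay in 1 cell. Fcrls was at 7.91, 103, 169 and 66.5 CPM in the 4 groups, with Mrc1 alone above neither in each library. P2ry12 was at 13.8, 15.3, 37.9 and 32.0 CPM.

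**Figure D3:**
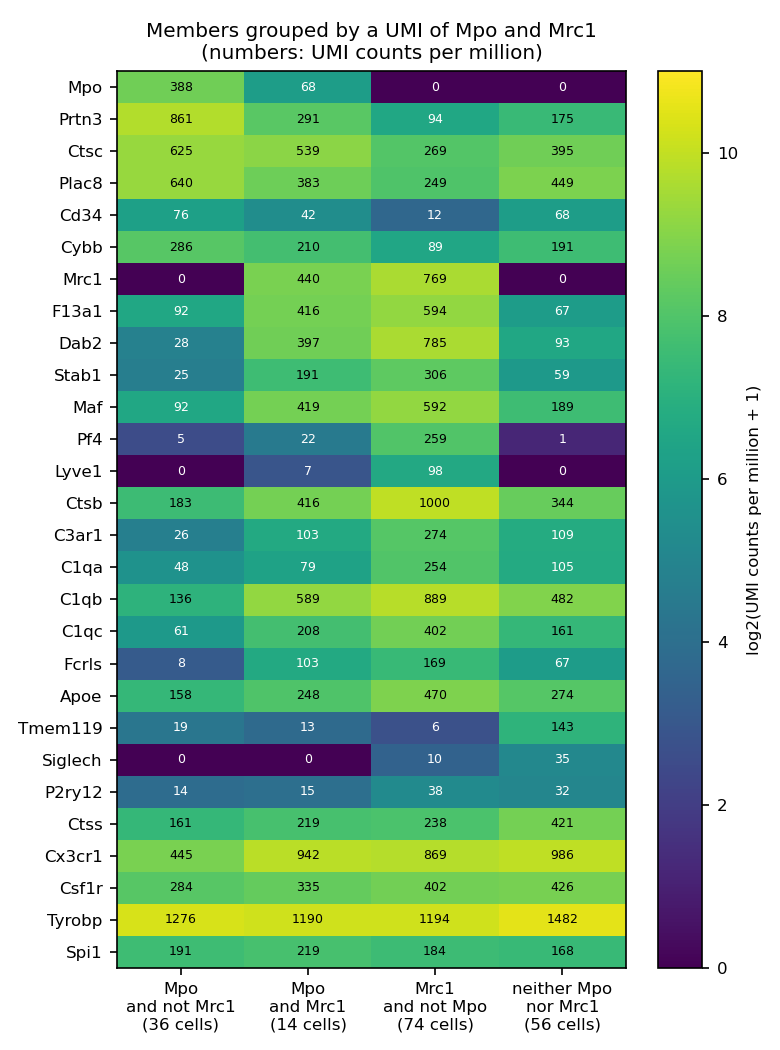
CPM of 28 genes in macrophages grouped by a UMI of Mpo and Mrc1, with UMIs summed over the cells of all libraries, colour on a log2 scale and the value printed in each field. Prtn3 falls from 861 to 93.8 CPM and C1qb rises from 136 to 889 CPM between cells with Mpo alone and Mrc1 alone.

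Lyve1 met the microglia genes unevenly. Lyve1 and Tmem119 shared 2 cells, 8.70% of the cells with Lyve1 and 5.88% of those with Tmem119. Lyve1 and Siglech shared 4 cells, 17.4% of the cells with Lyve1 and 30.8% of those with Siglech. Siglech was in 13 cells and in 0 of the 50 with Mpo. In 36 cells with Tmem119 or Siglech and no Lyve1, Ctss was at 479 CPM, Mrc1 at 152 CPM and Pf4 at 10.2 CPM. In 17 cells with Lyve1 and neither of those genes, Ctss was at 171 CPM, Mrc1 at 997 CPM and Pf4 at 491 CPM. Fcrls had a UMI in 17 and P2ry12 in 10 of these 17 cells, and each in 21 of the 36. C1qb was at 703 and 769 CPM and Csf1r at 549 and 338 CPM in these 2 groups. Tmem119 also had a UMI in 6.06% of the other kept cells, against 18.9% of the macrophages.

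**Figure D4:**
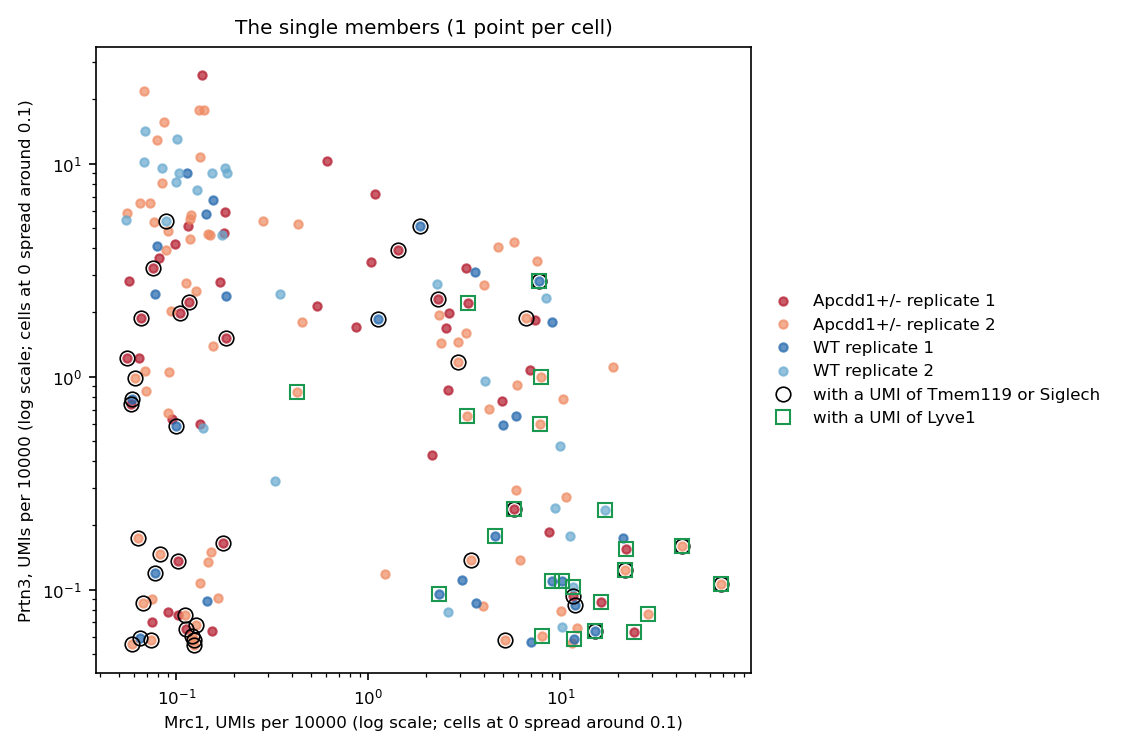
Each of the 180 macrophages as a point by its Mrc1 and Prtn3 UMIs per 10000 UMIs (log scales, cells at 0 spread around 0.1 for visibility), coloured by library, with circles for cells with a UMI of Tmem119 or Siglech and squares for cells with a UMI of Lyve1. All 23 cells with Lyve1 lie among those with Mrc1.

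The groups were present in every library, in different shares. Cells with Mpo alone made up 14.9% and 17.9% of the macrophages in Apcdd1+/- and 13.8% and 42.3% in WT, the highest in replicate 2 of WT. Cells with Mrc1 alone made up 40.4% and 37.2% in Apcdd1+/- and 55.2% and 38.5% in WT. Cells with neither made up 38.3% and 35.9% in Apcdd1+/- and 24.1% and 11.5% in WT. Replicate 2 of WT, where Tmem119 and Lyve1 were lowest and Prtn3 and Mpo highest, was also the library with the deepest macrophages and with 20 of 26 of them holding 3 or more markers of another class. The part of depth and of cells with such markers in these shares was not tested.

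Whether the loss of 1 Apcdd1 copy went with a change in the macrophages was asked by comparing the genotypes. Apcdd1 was first read in every library: it was at 12.4 and 7.86 CPM in the macrophages of Apcdd1+/- and 8.51 and 3.74 CPM in those of WT, from 10, 11, 5 and 4 UMIs, too few to be tested. In the other cells it was at 78.0 and 50.5 CPM in Apcdd1+/- and 63.8 and 61.9 CPM in WT, so the genotypes overlapped, and the transcript does not check the labels. Against the other cells Apcdd1 was lower in the macrophages (log2 -2.73, SE 0.23).

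The share of macrophages overlapped between the genotypes. It was 0.495% (exact 95% interval 0.364% to 0.657%) and 1.41% (1.11% to 1.75%) in Apcdd1+/- and 0.463% (0.311% to 0.665%) and 0.880% (0.575% to 1.29%) in WT. Both replicate 2 libraries were above both replicate 1 libraries. With macrophages holding 3 or more markers of another class left out, replicate 2 of WT fell to 0.203%, the lowest of the 4 (0.326%, 0.938% and 0.336% in the others). Those cells left the count of macrophages, 20 of 26 in replicate 2 of WT, while the kept cells divided by were unchanged. That setting made no adjustment for depth, and replicate 2 of WT had the deepest macrophages. With cells thinned to 1500 UMIs the share in replicate 2 of WT was 0.411%, against 0.406% in replicate 1 of WT. The mean was 0.951% in Apcdd1+/- and 0.671% in WT, a difference of 0.28 percentage points (two-sided exact permutation p = 0.667, where 2 libraries against 2 cannot give less than 0.333). Without replicate 2 of Apcdd1+/- the difference turned to -0.18 points. The intervals cover counting error only.

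Genes of the macrophages were compared between genotypes with edgeR's quasi-likelihood test on the sums per library. Of 7427 genes tested 2 passed (0.0269%), both lower in Apcdd1+/-, and 208 had an unadjusted p under 0.05 (2.8%). Neither reached the 50 CPM set for naming, so they are named after their values were seen. Slpi, a secreted protease inhibitor (chr2:164354070-164389095, mm10), was at 12.4 and 7.15 CPM in Apcdd1+/- and 68.1 and 46.8 CPM in WT (log2 -2.62, SE 0.41, adjusted p = 0.0314). Its UMIs sat in few cells of WT: 33 of 40 were in 1 cell in replicate 1 and 22 of 50 in 1 cell in replicate 2. Fmr1nb, an X-linked gene (chrX:68761839-68804567, mm10), was at 0 and 1.43 CPM in Apcdd1+/- and 18.7 and 39.3 CPM in WT (log2 -4.92, SE 0.77, adjusted p = 0.0314), from 0, 2, 11 and 42 UMIs in 0, 1, 3 and 7 cells. Without either WT library 0 genes passed, without replicate 1 or 2 of Apcdd1+/- 10 and 9 passed, and DESeq2 called 0 (46 at an unadjusted p under 0.05).

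**Figure D5:**
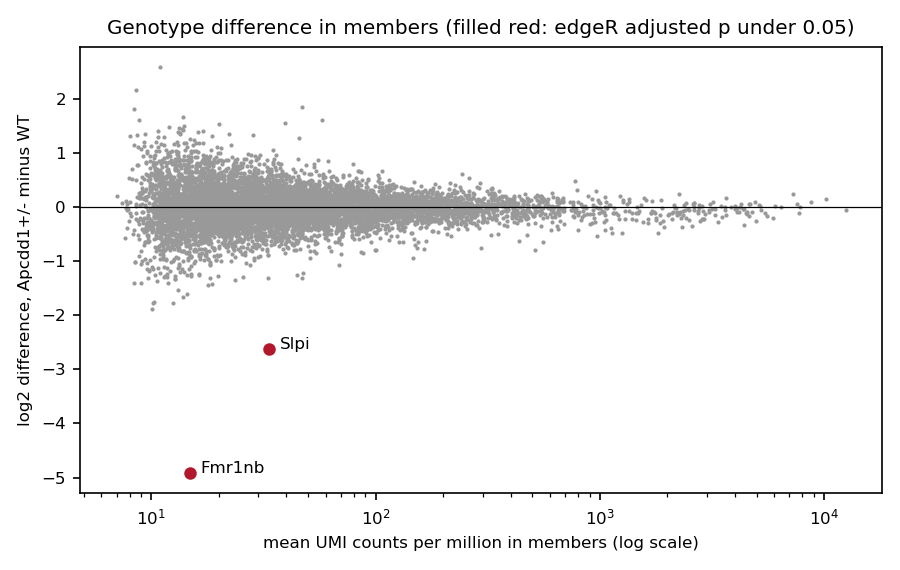
Log2 difference between Apcdd1+/- and WT macrophages against mean CPM (log scale) for the 7427 genes tested with edgeR, with the 2 genes past the threshold in red. Slpi stands at -2.62 and Fmr1nb at -4.92, both lower in Apcdd1+/-.

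No gene of the lists passed the genotype test. Of all 7427 genes tested, 3572 had a positive and 3855 a negative log2 difference. Among the 28 Wnt pathway genes 9 had enough counts to be tested, 4 positive and 5 negative, for example Ctnnb1 at 187 and 203 CPM in Apcdd1+/- and 209 and 181 CPM in WT (log2 -0.03). Of 15 microglia genes tested 13 were positive, with a median of 0.29 against -0.01 for all genes. In 3 of the 15 both Apcdd1+/- libraries were above both WT libraries, beside 16.3% of all genes. In 1 both were below, beside 13.1% of all genes. Among those with low values in replicate 2 of WT is Tmem119, given above. Of 11 border macrophage genes 9 were negative, with a median of -0.13. Among them 0 were without overlap, beside 16.3% above and 13.1% below of all genes. Of the core macrophage genes 13 were positive and 14 negative. Recovery was measured in simulated data of this size, with changed genes drawn only from those averaging 50 CPM or more. Of genes changed 1.5-fold 5.97% were recovered, of those changed 2-fold 46.3% and of those changed 4-fold 97.0%. Recovery of genes at lower levels was not measured.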

How the data were processed

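Droplet single-cell libraries of 4 samples, 2 per genotype, were deposited by the authors as matrices of raw UMI counts. Per the file headers, PISA 0.12 wrote them. The submitters' processing notes name mm10 and Scanpy 1.9.1. No source used here names an aligner or an earlier filter on cells. Together the matrices hold 20719 genes, and absence from a matrix was read as 0.

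Cells with at least 500 genes and under 10% mitochondrial UMIs were kept, and 3 of 8 rule genes chose the macrophages. The members, the gene lists and the tests were chosen with earlier results of these data known. UMIs were summed per library and fitted with edgeR 4.0.16 in R 4.3.3 (TMM, its low-count filter, quasi-likelihood test, Benjamini-Hochberg at 0.05). The SE of a log2 difference came from its F statistic. Shares were tested by exact permutation in scipy 1.17.1, with exact binomial intervals. DESeq2 1.42.0 was an alternative.

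The rule for named genes took Apcdd1, the 8 rule genes, the 25 highest and 10 lowest log2 differences against the other cells at 200 CPM or more with the same side in 4 libraries (447 and 252 genes met the criteria), genotype calls at 50 CPM or more (0), the called members of each list with the largest differences, or its most abundant members, Y-linked genes as a check, and 5 ligands. Not every such list member is given, and other list members, among them Axl, Tfrc, Igf1 and Ms4a7, were named for their known roles after their values were seen. Some genes counted in these sets are not reported by name here. The models were tested on simulated data with 200 changed genes in the form of these counts. Those genes were drawn only from genes averaging 50 CPM or more. Against the other cells, 88.1% of genes changed 1.5-fold were recovered among 14497.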

Additional observations from a re-analysis of the deposited data

How the results depend on the processing

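The share difference between genotypes kept its sign under each setting run except without replicate 2 of Apcdd1+/-, and leaving out each library gave -0.18 to 0.74 percentage points. The number of genes called between genotypes was 2, and 0 with DESeq2, 6 with no filter on low counts, 0 with cells holding 3 or more markers of another class left out, and 0 to 10 with each library left out. It was 1 (Slpi) with cells holding Mpo left out, an alternative chosen after seeing the data. The replicate block gave 4 calls, and the deviations of same-numbered libraries had a correlation of 0.0083 over 7427 genes. With 2 libraries per genotype, that value cannot decide whether the numbers pair the libraries. Thinning cells to 1500 UMIs gave 31.7% of macrophages with Mrc1, 6.67% with Mpo, 5.0% with Lyve1, 6.67% with Tmem119 and 22.2% with Mki67. Thinned shares are lower by construction. Against the other cells all 35 genes taken by the rule were called in the same direction in 12 of 12 alternatives, and 351 of the 401 called genes of the lists or named. Without the library block 3394 genes were higher and 5115 lower. With 26 to 78 macrophages per library, differences in genes near 10 CPM rest on few UMIs.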
